A study of Mus musculus with 9 samples.

Results

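Respiratory complex I, the NADH:ubiquinone oxidoreductase of the inner mitochondrial membrane, is described here in mouse muscle through its nuclear subunit genes. The members were taken by name: every row of the count table whose symbol was Nduf followed by a, ab, b, c, s or v and a number, which left out the assembly factors named Ndufaf. The rule took 37 of 24062 gene symbols and used no measured value. Transcripts were counted in whole gastrocnemius, a calf muscle of mixed but mainly fast fibres, from 3-month-old mice whose strain is given as 129Sve/C57BL/6 mix. In all, 9 libraries fell into 3 genotypes of 3 libraries each. They were wild type (WT) and 2 heterozygous carriers, hetL1002P and hetX753, which have 1 wild-type copy of Bub1b and 1 copy with an allele of mosaic variegated aneuploidy (MVA), a chromosome segregation syndrome. Bub1b encodes BubR1, a protein of the mitotic spindle checkpoint. Its counts were low in this muscle, 11 to 21 in WT, 2 to 10 in hetL1002P and 5 to 8 in hetX753, and check the labels little. Nothing in the labels ties a library to its own animal, so p-values here measure only the spread between libraries, which may be technical.

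Complex I takes electrons from NADH, passes them along a chain of iron-sulfur clusters in an arm that projects into the matrix, and hands them to ubiquinone, while its membrane arm pumps protons. The catalytic core of the matrix arm is built from nuclear subunits, and the proton-pumping core of the membrane arm from mitochondrially encoded ones, which were not analysed here. Around the core sit accessory subunits that are needed for assembly and stability. Oxidative muscle fibres, rich in mitochondria, contain more of the complex than glycolytic ones.

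Of the 37 genes, 36 had enough counts to be tested, with at least 1486 counts in each library. The exception was Ndufs5, a small membrane arm subunit on chromosome 4 from 123712710 to 123718186 (GRCm38.p6), which was listed at 0 counts in all 9 libraries. The RefSeq annotation used here contains the gene. Its zeros were not read as a level. Ndufb1 is not a symbol of the count table and was not analysed here.

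Promoters of a few members are shown because they hold a motif known from respiratory chain genes. NRF1 (nuclear respiratory factor 1) is a transcription factor known for binding promoters of respiratory chain genes, and its core motif was searched as GCGCANGCG on both strands. The window ran from 250 bases before to 50 bases after the RefSeq start site (GRCm38.p6). Of the 33 members with a promoter entry, 8 held a match (24.2%), against 7.03% of 27025 genes: Ndufa5, Ndufa6, Ndufa8, Ndufa11, Ndufb4, Ndufb10, Ndufs5 and Ndufs6. The other 25 held none. The YY1 motif AAGATGGCG was found for 5 of 33 (Ndufa9, Ndufc1, Ndufs4, Ndufs6 and Ndufs7), against 1.64% of genes. The ETS family motif CCGGAAGT, bound by GABP, was found for 1 (Ndufs3), against 4.31%, and the estrogen-related receptor motif TCAAGGTCA for 0, against 0.466%. Below are the 250 bases upstream of the start of 3 members with NRF1 matches. Capitals mark NRF1 matches. Ndufa8 (chr2:36049339-36049588, minus strand) held 2 matches. Ndufa11 (chr17:56717512-56717761, plus strand) held 2 that overlap, 1 on each strand, and Ndufs6 (chr13:73328483-73328732, minus strand) 1.
Ndufa8: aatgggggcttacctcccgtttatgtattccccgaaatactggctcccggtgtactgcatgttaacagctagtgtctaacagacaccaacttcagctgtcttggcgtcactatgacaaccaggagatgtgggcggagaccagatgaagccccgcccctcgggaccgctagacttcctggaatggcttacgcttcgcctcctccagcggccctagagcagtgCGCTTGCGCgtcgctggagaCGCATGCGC
Ndufa11: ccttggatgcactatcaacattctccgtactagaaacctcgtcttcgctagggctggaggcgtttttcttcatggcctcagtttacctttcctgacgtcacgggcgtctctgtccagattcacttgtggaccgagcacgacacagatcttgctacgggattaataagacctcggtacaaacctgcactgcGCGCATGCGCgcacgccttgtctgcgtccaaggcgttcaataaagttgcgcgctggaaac
Ndufs6: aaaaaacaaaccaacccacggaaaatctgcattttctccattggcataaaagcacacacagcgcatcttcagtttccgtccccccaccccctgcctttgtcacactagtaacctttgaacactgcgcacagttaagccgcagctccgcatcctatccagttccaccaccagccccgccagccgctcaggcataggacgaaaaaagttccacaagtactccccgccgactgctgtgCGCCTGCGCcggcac
A match is a description of letters, not evidence of binding. Over the libraries, Ndufs6, with a match, had a median correlation of 0.979 with the other members, and Ndufs3, with no NRF1 match, 0.976. Whether members with and without a match varied differently was not tested.

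Complex I subunit genes were abundant in this muscle. Their mean level in WT had a median of 240 CPM (read counts scaled to library size with TMM factors), against a median of 11 CPM over all 12989 genes tested. The lowest was Ndufc2 at 106 CPM. Their summed level was 9118, 9805 and 13360 CPM in WT, 8005, 7230 and 11660 CPM in hetL1002P and 9052, 8294 and 7565 CPM in hetX753. WT 3 and hetL1002P 3 thus held the 2 highest sums. In whole tissue, fewer cells of a type and less RNA per cell cannot be told apart. Per kilobase of the annotated principal transcript, the WT level was highest for Ndufa4 at 921 CPM per kb, whose product is now counted as a subunit of cytochrome c oxidase, and for Ndufb9 at 884. Medians of the WT level were 303 CPM per kb for the core subunits, 238 for the peripheral arm accessory subunits, 352 for the Ndufb subunits and 289 for the other membrane arm subunits. Ndufb2 and Ndufab1 came lowest, at 36.3 and 38.4 CPM per kb, and their annotated principal transcripts of 4371 and 3479 bases are the longest of the members, so that a shorter transcript in use would place them higher.

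The members moved up and down together from library to library. Over the 9 libraries the median correlation between 2 members was 0.955 (log2 CPM, 630 pairs), and 480 pairs were above 0.9. These values are a description: the points share libraries and their scaling. Of the 36 genes, 31 were highest in WT 3 and the other 5 in hetL1002P 3, and 29 were lowest in hetL1002P 2. Relative to each gene's mean over all libraries, the median member stood at 0.01, 0.10 and 0.59 on the log2 scale in WT 1, 2 and 3. It stood at -0.19, -0.40 and 0.34 in hetL1002P 1, 2 and 3 and at -0.03, -0.16 and -0.32 in hetX753 1, 2 and 3. The libraries of WT and of hetL1002P were thus further apart than the medians of the genotypes.

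**Figure D1:**
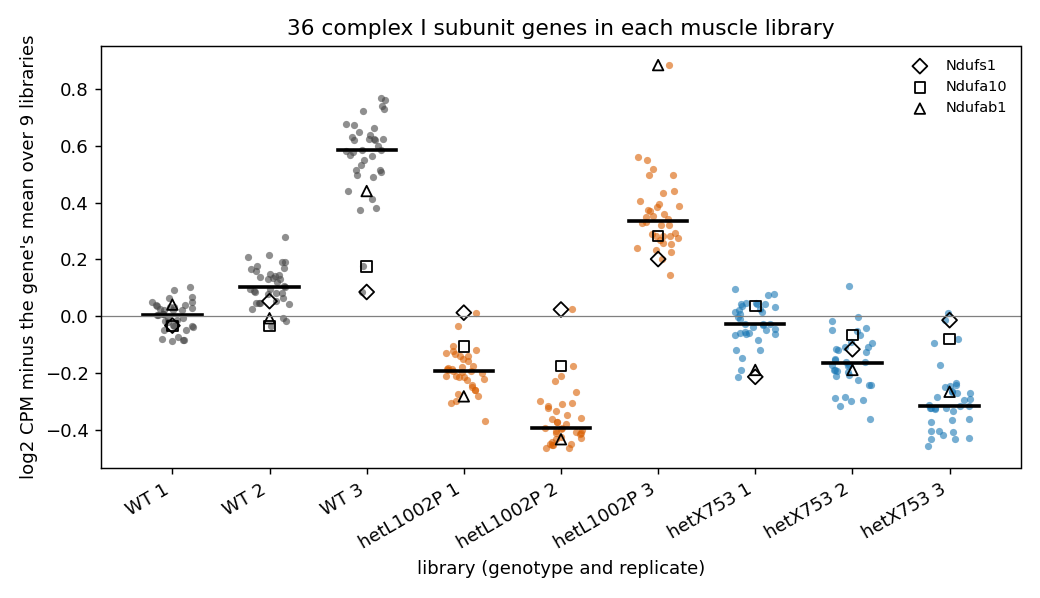
Each point is 1 of 36 complex I subunit genes in 1 library: the vertical axis is its log2 CPM minus its own mean over the 9 libraries, the horizontal axis the library, and the black bar the median of the genes. All 36 genes lie above their mean in WT 3 and in hetL1002P 3, and Ndufs1, Ndufa10 and Ndufab1 are marked with open symbols.

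A few members stood apart from this shared pattern. Ndufs1, the largest subunit, which carries several of the iron-sulfur clusters, varied least (SD 0.12 on the log2 scale over 9 libraries) and had a median correlation of 0.477 with the other members. Ndufa10, an accessory subunit related to nucleoside kinases, had an SD of 0.14, and Ndufv1, which binds FMN and oxidises NADH, one of 0.18. For the other members the SD ran up to 0.42, in Ndufab1. Ndufab1 is the mitochondrial acyl carrier protein, which also serves fatty acid synthesis. It reached 219 CPM in hetL1002P 3 against 161 in WT 3, where the typical member was higher in WT 3. Ndufs1, Ndufs4 and Ndufa10 also had their highest level in hetL1002P 3. The SD of Ndufs4 was 0.35.

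In hetX753 muscle, every tested complex I gene had a log2 fold change below 0 against WT, and no single gene passed the threshold. The changes ran from -0.63 in Ndufv3 to -0.07 in Ndufa10, with a median of -0.40, against a median of 0.00 over all genes tested. By edgeR's quasi-likelihood test with Benjamini-Hochberg adjustment over all genes, 0 of 36 members were called, where 0.508% of all genes were; DESeq2 and limma-voom also called 0, where they called 4.93% and 0.423% of all genes. At an unadjusted p under 0.05, 9 members were lower and 0 higher, 25.0% of the members, against 9.69% of all genes lower. The same count was 13 with DESeq2 (10.3% of all genes) and 8 with limma-voom (9.28%). It was 26 in a fit of these 2 genotypes alone (12.6%) and 3 once each library's dependence on transcript length and GC content was taken out (8.67%). A value below 0 was found for 49.6% of all genes. In 20 members every hetX753 library lay below every WT library, 55.6% of the members, against 15.8% of all genes. The members vary together, so their number is not one of independent observations. Without WT 3 the median was -0.22, and 0 members had an unadjusted p under 0.05, against 5.64% of all genes lower. Leaving out 1 other library kept the median between -0.52 and -0.34. The count at that p was 0 without hetX753 3 (5.08% of all genes), 1 without hetX753 2 (6.35%), 16 without hetL1002P 2 (10.9%), 20 without WT 1 (10.1%) and 29 without hetL1002P 3 (13.8%).

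The 7 core subunits carry the flavin and the iron-sulfur clusters or form the quinone site. All lay below 0 in hetX753, with a median of -0.34, against 49.6% of all genes below 0. Ndufv1 measured 436, 476 and 599 CPM in the WT libraries, against 416, 399 and 511 with hetL1002P and 466, 449 and 432 with hetX753. Its groups overlapped, and the log2 fold change in hetX753 was -0.17 (SE 0.14, edgeR adjusted p = 0.512). Ndufv2, its iron-sulfur partner, measured 331, 355 and 516 CPM in the WT libraries, against 294, 261 and 440 with hetL1002P and 308, 299 and 277 with hetX753. All 3 hetX753 libraries lay below WT, and the change was the deepest of the core, -0.44 (SE 0.21, edgeR adjusted p = 0.258). Ndufs1 measured 374, 397 and 406 CPM in the WT libraries, against 386, 389 and 440 with hetL1002P and 330, 353 and 379 with hetX753. Its range was narrow in every genotype, hetX753 and WT overlapped, and the log2 fold change was -0.15 (SE 0.11).

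Other core subunits followed the shared library pattern. Ndufs7, which carries the last cluster before ubiquinone, measured 399, 428 and 574 CPM in the WT libraries, against 335, 289 and 470 with hetL1002P and 387, 374 and 310 with hetX753. Here hetX753 lay below WT without overlap (log2 fold change -0.39, SE 0.20, edgeR adjusted p = 0.279). Ndufs3 measured 335, 360 and 470 CPM in the WT libraries, against 300, 263 and 407 with hetL1002P and 322, 314 and 284 with hetX753, and its hetX753 libraries also lay below WT (log2 fold change -0.34, SE 0.18). Ndufs8, an iron-sulfur subunit, measured 131, 144 and 197 CPM in the WT libraries, against 126, 112 and 166 with hetL1002P and 133, 136 and 113 with hetX753, with overlap (log2 fold change -0.31, SE 0.18).

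The accessory subunits of the peripheral arm had the lowest median of the groups in hetX753, -0.48, and whether the groups differed was not tested. Of these genes, 9 of 9 lay below 0, against 49.6% of all genes. At an unadjusted p under 0.05 (edgeR) 6 were lower, against 9.69% of all genes. Ndufv3, an accessory subunit of the NADH-oxidising module on chromosome 17 from 31520115 to 31531326, measured 146, 158 and 217 CPM in the WT libraries, against 120, 106 and 184 with hetL1002P and 130, 106 and 99.2 with hetX753. Every hetX753 library lay below every WT library, and the level was 1.55-fold lower (log2 -0.63, SE 0.22, edgeR adjusted p = 0.165). This was the smallest p of the members, and Ndufv3 was called when hetL1002P 3 was left out of the fit (edgeR adjusted p = 0.048), in which 1 of 36 members and 5.07% of all genes were called. Ndufa2 measured 235, 257 and 381 CPM in the WT libraries, against 188, 163 and 291 with hetL1002P and 218, 197 and 167 with hetX753. It was 1.5-fold lower in hetX753 without overlap (log2 -0.58, SE 0.24, edgeR adjusted p = 0.203). Ndufa12 measured 211, 226 and 302 CPM in the WT libraries, against 174, 163 and 247 with hetL1002P and 190, 176 and 162 with hetX753, again without overlap between hetX753 and WT (log2 -0.48, SE 0.18, edgeR adjusted p = 0.184). Ndufs6, a zinc-binding subunit, was at log2 -0.57, and Ndufs4, whose loss causes a Leigh-like encephalopathy in mice, at -0.44. Ndufa9, which sits near the quinone site, was at -0.35, the value nearest 0 in this group.

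In the membrane arm, all 10 tested Ndufb genes lay below 0 in hetX753, with a median of -0.41. So did the 8 other accessory genes, with a median of -0.43, against 49.6% of all genes. Ndufb3 measured 108, 125 and 172 CPM in the WT libraries, against 107, 82.4 and 143 with hetL1002P and 105, 89.9 and 82.6 with hetX753. Its hetX753 libraries lay below WT by a small gap (log2 -0.55, SE 0.22, edgeR adjusted p = 0.2). Ndufb4, the member nearest the median change, measured 192, 195 and 290 CPM in the WT libraries, against 166, 145 and 237 with hetL1002P and 193, 165 and 154 with hetX753, and hetX753 1 overlapped WT (log2 -0.40, SE 0.21). Ndufa10 measured 224, 224 and 259 CPM in the WT libraries, against 213, 203 and 279 with hetL1002P and 235, 219 and 217 with hetX753. Its groups overlapped widely, and the change of -0.07 (SE 0.14, edgeR adjusted p = 0.773) was the nearest to 0 of all members. With library totals as the only scaling it was 0.05. Ndufa8 and Ndufa11, whose promoters are printed above, were at -0.48 and -0.44.

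**Figure D2:**
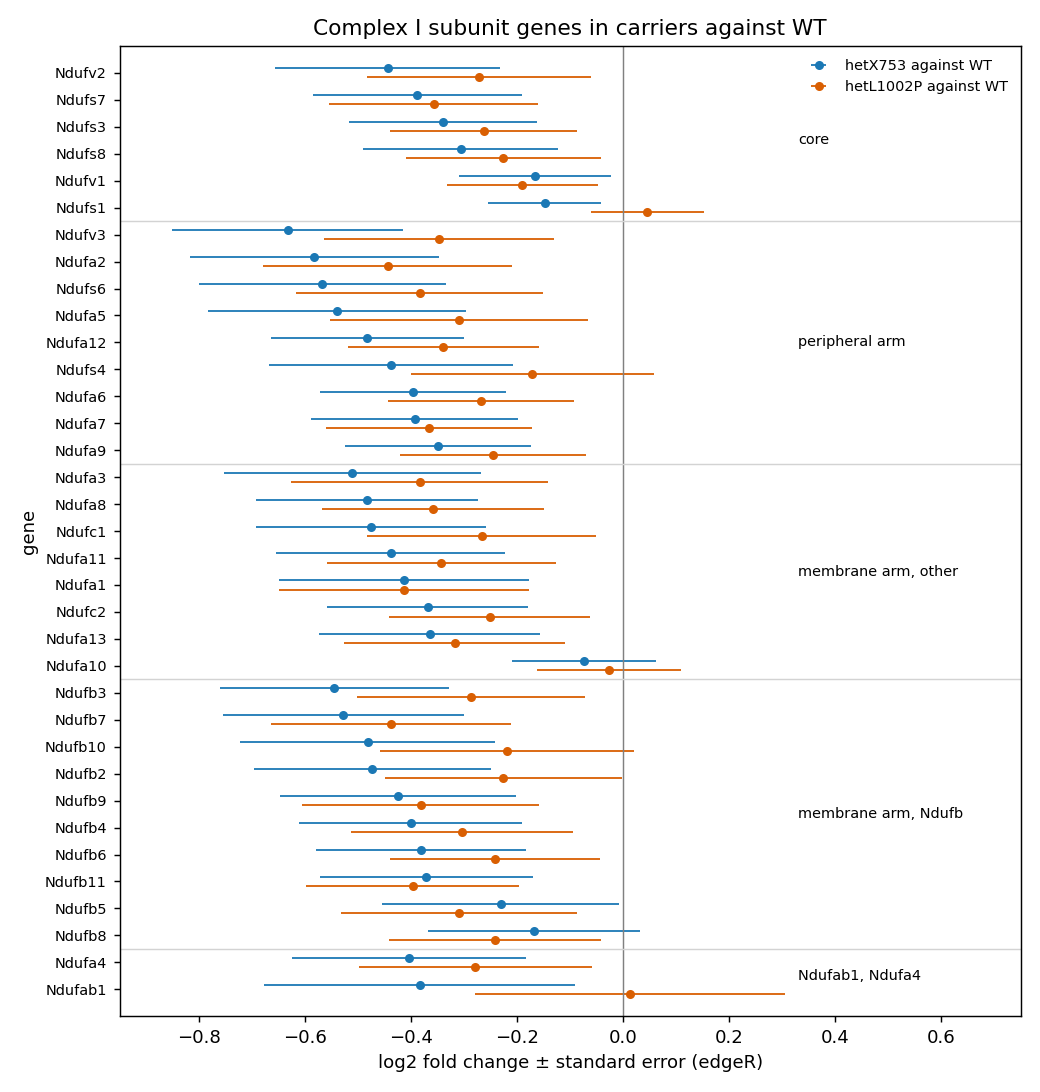
Points are log2 fold changes against WT with standard errors (edgeR, 3 libraries per genotype), for hetX753 in blue and hetL1002P in orange, with 35 genes on the vertical axis grouped by role. All blue points lie below 0, from -0.63 in Ndufv3 to -0.07 in Ndufa10, and both comparisons share the WT libraries.

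In hetL1002P muscle, 34 of 36 complex I genes lay below 0 against WT, with a median log2 fold change of -0.28, and none passed the threshold. A value below 0 was found for 48.1% of all genes, whose median was 0.01. The fit of all libraries called 0 of 36 members and 0.0% of all genes (edgeR, Benjamini-Hochberg). DESeq2 and limma-voom called 0 members, against 0.0385% and 0.0154% of all genes. At an unadjusted p under 0.05 the count of members was 0, and 2.57% of all genes were lower. In 0 members did every hetL1002P library lie below every WT library, against 3.77% of all genes. The libraries within the genotype were far apart: hetL1002P 1 and 2 lay below every WT library in 35 of 36 members, whereas hetL1002P 3 lay above both WT 1 and WT 2 in all 36. The same arrangements were not counted over all genes. They need not be particular to complex I: the median of other genes with a transcript under 1000 bases ran alike. Relative to each gene's mean it stood at -0.18, -0.32 and 0.25 in hetL1002P 1, 2 and 3. The members' median fold change was -0.54 without hetL1002P 3, with 34 members at an unadjusted p under 0.05 (13.0% of all genes lower) and 0 called (0.00758% of all genes). It was -0.14 without hetL1002P 2 and -0.09 without WT 3. Without WT 1, 4 members had such a p, against 4.63% of all genes. Since both carriers are set against the same 3 WT libraries, the values of the 2 comparisons are not independent.

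By role, the medians in hetL1002P were -0.23 for the core, -0.34 for the peripheral arm accessory subunits, -0.30 for the Ndufb subunits and -0.33 for the other membrane arm subunits. Ndufb11, an X-linked membrane arm subunit, had the smallest p. It measured 350, 363 and 531 CPM in the WT libraries, against 283, 258 and 403 with hetL1002P and 353, 321 and 289 with hetX753. The log2 fold change in hetL1002P was -0.40 (SE 0.20, edgeR adjusted p = 0.579), and hetL1002P 3 lay between WT 2 and WT 3. Ndufb7, a subunit of the intermembrane-space face, measured 193, 233 and 307 CPM in the WT libraries, against 156, 140 and 245 with hetL1002P and 188, 178 and 142 with hetX753. Its log2 fold change in hetL1002P was -0.44 (SE 0.23), with the same arrangement of libraries. Ndufa7 measured 132, 147 and 201 CPM in the WT libraries, against 116, 101 and 155 with hetL1002P and 137, 123 and 106 with hetX753, with a log2 fold change of -0.37 (SE 0.20). Ndufa2 was the lowest, at -0.44 (SE 0.24). Of the core, Ndufs7 stood at -0.36 (SE 0.20), Ndufv2 at -0.27 (SE 0.21), Ndufs3 at -0.26 (SE 0.18), Ndufs8 at -0.23 (SE 0.18) and Ndufv1 at -0.19 (SE 0.14). Ndufs1 and Ndufab1 were the 2 members above 0, at 0.05 (SE 0.11) and 0.01 (SE 0.29).

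The call in hetL1002P depended on whether libraries with the same replicate number were paired. Numbers 1, 2 and 3 of WT and hetL1002P deviated together from their genotype means (r = 0.285, 0.36 and 0.516 over all genes). For libraries of these genotypes with different numbers, r ran from -0.454 to 0.198. The labels do not say what a number marks, and the pairing was judged on the same counts that were then tested. With the replicate number as a block in a fit of these 2 genotypes alone, 12 of 36 members were called, all lower, 33.3% of the members, against 2.37% of all genes called lower (edgeR, Benjamini-Hochberg). They were Ndufa1, Ndufa2, Ndufa3, Ndufa7, Ndufa8, Ndufa12, Ndufb7, Ndufb9, Ndufb11, Ndufs6, Ndufs7 and Ndufv3. Their log2 fold changes in that fit ran from -0.47 in Ndufa2 (SE 0.10, edgeR adjusted p = 0.0333) to -0.36 in Ndufa12 (edgeR adjusted p = 0.0474). The edgeR adjusted p ran from 0.033 in Ndufa1 to 0.0496 in Ndufa7. That fit had fewer libraries and fewer residual degrees of freedom than the fit of all 9 libraries. With the block in the fit of all 9 libraries 0 members were called, where 0.0% of all genes were. The count was also 0 in the fit of 2 genotypes with the length and GC dependence taken out (0.00788% of all genes). Without pair 1, 2 or 3 the block called 0 members, with smallest adjusted p (edgeR) of 0.119, 0.341 and 0.0626. Of all genes, 0.237%, 0.0316% and 1.75% were then called, against 5.01% with all 3 pairs. Calls thus fell over all genes and not only the members.

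With the carriers set directly against each other, no single complex I gene passed the threshold. The median log2 fold change of hetX753 against hetL1002P was -0.12, with 32 of 36 members below 0, against 52.6% of all genes. The test called 0 members, against 0.115% of all genes (edgeR, Benjamini-Hochberg). DESeq2 and limma-voom also called 0, against 1.06% and 0.123% of all genes. At an unadjusted p under 0.05 edgeR found 0, against 4.34% of all genes lower. Ndufs1 had the smallest p, with a log2 fold change of -0.19 (SE 0.11, edgeR adjusted p = 0.705). It was the 1 member with every hetX753 library below every hetL1002P library, an arrangement found in 6.98% of all genes. Ndufab1 measured 122, 118 and 161 CPM in the WT libraries, against 97.5, 87.8 and 219 with hetL1002P and 104, 104 and 98.6 with hetX753. The change of -0.40 (SE 0.29) between carriers was the lowest of the members and rests on hetL1002P 3: without that library it was 0.14. Ndufv3 stood at -0.29 (SE 0.22) and Ndufb3 at -0.26 (SE 0.22). Ndufb5 measured 276, 297 and 435 CPM in the WT libraries, against 236, 211 and 367 with hetL1002P and 307, 258 and 294 with hetX753, and its change of 0.08 (SE 0.22) was the highest. Without hetL1002P 3 the median turned to 0.12, with 3 of 36 members below 0, so the direction between the carriers rests on that library. It was -0.25 without hetL1002P 2, -0.19 without hetX753 1 and -0.05 without hetX753 3.

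Transcript length moved with these differences. Of the 36 members, 20 have a principal transcript under 1000 bases, and their median log2 fold change in hetX753 was -0.42, against -0.36 for the longer members. The 742 other tested genes with a transcript under 1000 bases had a median of -0.36 in hetX753 and -0.30 in hetL1002P, and the 4192 other genes over 4000 bases medians of 0.21 and 0.21. The short genes were also high in the same libraries, with a median of 0.50 in WT 3 and 0.25 in hetL1002P 3 relative to their mean, where the long genes stood at -0.34 and -0.14. After each library's dependence on length and GC content was taken out, the members' median became -0.15 in hetX753 against WT, with 32 of 36 below 0. It became -0.07 in hetL1002P, with 28 below 0. The median over all genes in that fit was -0.024 and -0.012, and the share of all genes below 0 was not counted. At an unadjusted p under 0.05 (edgeR), 3 of 36 members were then lower in hetX753, a share near the 8.67% of all genes. In hetL1002P 0 were, against 1.58% of all genes. Ndufv1 then stood at 0.03 in hetX753 and Ndufs8 at 0.04 in hetL1002P. Over the members themselves, Spearman's rho between transcript length and log2 fold change was 0.349 in hetX753 and 0.654 in hetL1002P (36 genes that share libraries). The part of transcript length in the members' differences was otherwise not tested.

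**Figure D3:**
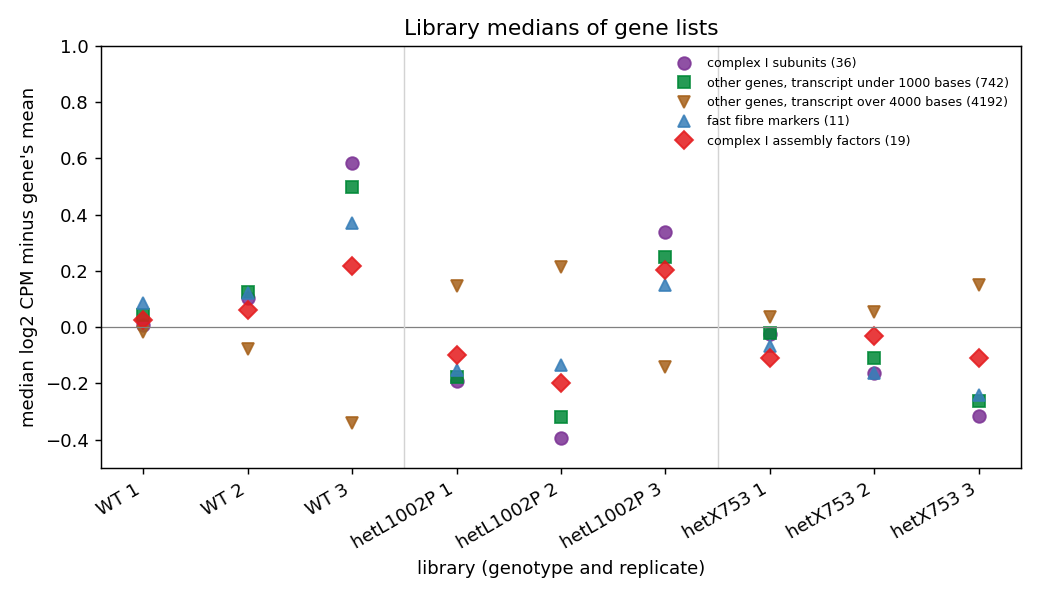
Each symbol is the median, over a list of genes, of log2 CPM minus the gene's mean over 9 libraries (vertical axis) in 1 library (horizontal axis). Complex I subunits and other genes with transcripts under 1000 bases are both highest in WT 3 (0.59 and 0.50) and lowest in hetL1002P 2, and genes over 4000 bases run the other way.

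The assembly factors of complex I, chaperone-like proteins that build the complex and leave it, had medians nearer 0 than the subunits. Of 20 listed, 19 were tested. Of these, 15 lay below 0 in hetX753 (median -0.22) and 16 in hetL1002P (median -0.09), against 49.6% and 48.1% of all genes. The test called 0 in either, against 0.508% and 0.0% of all genes (edgeR). At an unadjusted p under 0.05, 6 and 1 were lower, against 9.69% and 2.57% of all genes, and in hetL1002P 1 was higher. Timmdc1, which helps assemble the membrane arm, was at 32.9 ± 3.44 CPM in WT and 23.1 ± 1.82 in hetX753 (SD, n = 3; log2 -0.51, edgeR adjusted p = 0.15). Ndufaf1 was at log2 -0.42, Ndufaf2 at -0.65, with levels of 10.8 ± 2.25 CPM in WT and 6.85 ± 0.93 in hetX753, and Tmem261, an older symbol of Dmac1, at -0.45. Whether subunits and assembly factors differed was not tested.

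Medians of the other respiratory complexes also lay below 0. In hetX753 the median log2 fold change was -0.22 over 4 genes of complex II, -0.35 over 9 of complex III, -0.45 over 13 nuclear genes of complex IV and -0.37 over 15 of ATP synthase, beside -0.40 for complex I. Of the 13 genes of complex IV 12 lay below 0, as did every gene of the other 3 lists, against 49.6% of all genes. The test called 0 genes of any list, against 0.508% of all genes (edgeR). At an unadjusted p under 0.05, 0, 1, 7 and 3 were lower in the same order, against 9.69% of all genes. The genes with the smallest p were Sdhd at -0.29, Uqcrh at -0.56, Cox6a2, a muscle isoform, at -0.54 and Atp5d at -0.53. In hetL1002P the medians of the 4 lists were -0.185, -0.223, -0.316 and -0.282, beside -0.28 for complex I. Whether complex I differed from these complexes was not tested. Among 15 regulators of mitochondrial biogenesis, 9 lay above 0 in hetX753 (median 0.15), as did 6547 of all 12989 genes. The test called 0 of the 15 (edgeR), and 5 were higher at an unadjusted p under 0.05, beside 1459 of 12989 genes. In hetL1002P 9 also lay above 0 (median 0.147), and 1 was higher at that p, beside 700 of 12989 genes. Esrrg, an orphan nuclear receptor of oxidative muscle, was at 8.88 ± 2.66 CPM in WT and 21.9 ± 7.91 in hetX753 (SD, n = 3; log2 1.30, edgeR adjusted p = 0.0761). Gabpa, the DNA-binding subunit of GABP, was at log2 0.51, the muscle regulator Perm1 at 0.47 and the coactivator Ppargc1b at 0.79.

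Markers matched the labelled tissue, and their part in the members' differences was not tested. The summed level of 11 fast fibre genes was 222200 to 249400 CPM in WT, 193600 to 224500 in hetL1002P and 187200 to 210100 in hetX753, with none at 0. In hetX753 8 of the 11 lay below 0, against 49.6% of all genes, median -0.38, with Tnnc2 at -0.66. At an unadjusted p under 0.05 (edgeR), 7 of the 11 were lower and 0 higher, against 9.69% of all genes lower. In hetL1002P 4 were lower and 1 higher at that p, against 2.57% of all genes lower. The median fast gene was highest in WT 3 (0.37) and next in hetL1002P 3 (0.15), and lowest in hetX753 3 (-0.24). The 11 slow and oxidative fibre genes summed to 4610 to 7961 CPM in WT, 5144 to 8153 in hetL1002P and 5179 to 6723 in hetX753. In hetX753 8 of these lay below 0 (median -0.14, Myl3 at -0.60), and 0 had an unadjusted p under 0.05 (edgeR). The median slow gene stood at -1.17, 0.69 and 0.38 in WT 1, 2 and 3, where complex I stood at 0.01, 0.10 and 0.59. In hetL1002P 1, 2 and 3 it stood at 0.04, -0.68 and 0.46, and complex I at -0.19, -0.40 and 0.34. In hetX753 1, 2 and 3 it stood at -0.22, 0.58 and -0.205, and complex I at -0.03, -0.16 and -0.32. Fibroblast markers summed to 768.4 to 918.4 CPM in WT, 489.2 to 1199 in hetL1002P and 540.1 to 700.7 in hetX753. Of these 7 markers, 7 lay below 0 in hetX753, whereas 6 lay above 0 in hetL1002P. Macrophage markers summed to 28.29 to 51.73, 22.39 to 63.05 and 25.44 to 34.16 CPM in the same order. Here 6 of 6 lay below 0 in hetX753, whereas 4 lay above 0 in hetL1002P. Adipocyte markers summed to 300.3 to 472.2, 200.6 to 238.5 and 238.8 to 491.2 CPM, with 7 of 7 below 0 in hetL1002P and 5 above 0 in hetX753. Of all genes, 49.6% lay below 0 in hetX753 and 48.1% in hetL1002P. The test called 0 genes of the fibroblast, macrophage and adipocyte lists in either, against 0.508% and 0.0% of all genes (edgeR). Over all libraries the sums were 151.8 to 222.2 CPM for endothelium and 111.4 to 207.4 for Schwann cells, and of 5 erythroid markers 1, Alas2, had enough counts to be tested.

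**Figure D4:**
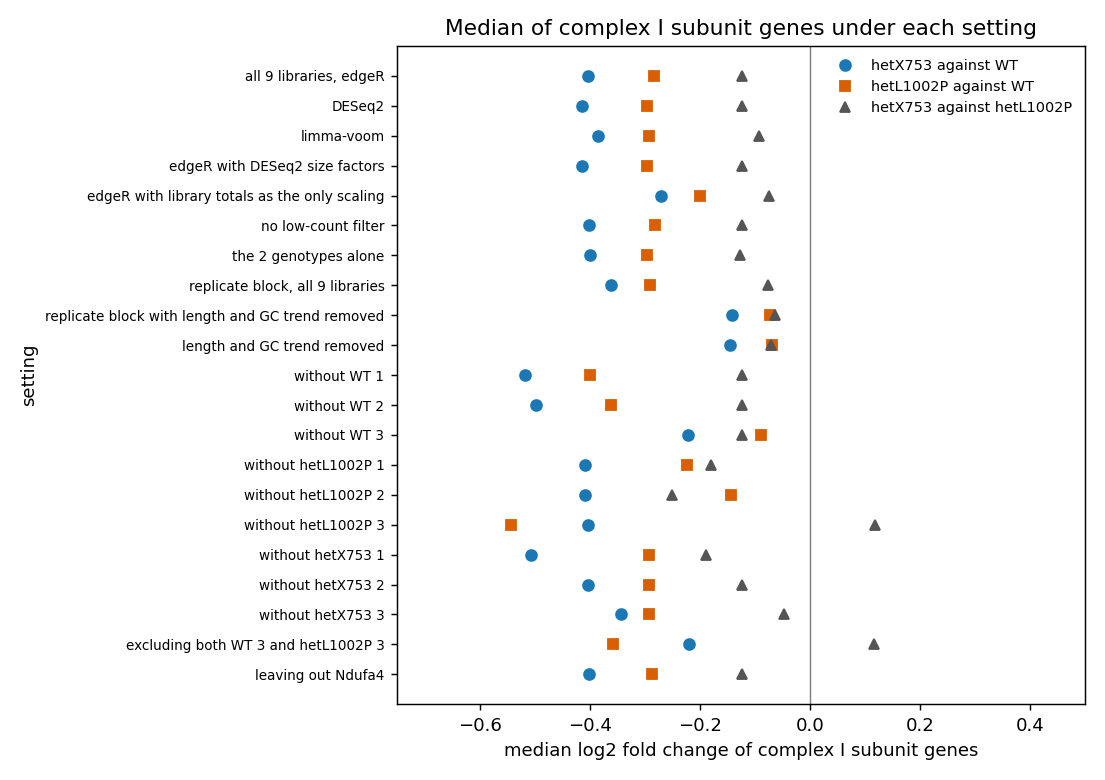
Each symbol is the median log2 fold change of the complex I subunit genes (horizontal axis) in 1 of 3 comparisons, under the setting named on the vertical axis. The medians against WT stay below 0 in all settings shown, nearest 0 with the length and GC trend removed or without WT 3, and the median between carriers crosses to 0.12 without hetL1002P 3.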

How the data were processed

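Gastrocnemius RNA was sequenced from libraries made with a TruSeq v2 kit (per the labels' protocols), a kit that does not mark strand. The values are raw read counts per gene symbol, as the authors deposited them. Per the submitters' processing notes, featureCounts 1.4.6, Subread, Bowtie2 2.2.6, TopHat2 2.0.14 and the build mm10 were used, in no stated order. The annotation, the strand setting and any filter are not given in the sources used. Library totals ran from 19768149 to 33977252. Exons of 14 members overlap another gene, on the other strand for 12 (Ndufa2, Ndufa3, Ndufa9, Ndufa13, Ndufab1, Ndufb2, Ndufb5, Ndufb6, Ndufb11, Ndufs1, Ndufs3 and Ndufs6) and on the same strand for 3 (Ndufb2, Ndufb8 and Ndufb9), so these levels are less certain.

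The 12989 genes that passed filterByExpr were tested with edgeR 4.0.16 in R 4.3.3: TMM scaling, 1 robust quasi-likelihood fit over 9 libraries by genotype alone, 6 residual degrees of freedom, and Benjamini-Hochberg adjustment over all genes, with calls at an adjusted p under 0.05. SE is the log2 fold change over the root of F. Scaling by library totals instead shifted the median gene by 0.12 for hetX753 and 0.09 for hetL1002P against WT, and changes are relative to that gene. The fit was tested on simulated data. Alternatives used DESeq2 1.42.0, limma-voom (limma 3.58.1), other scalings, no count filter, 2 genotypes alone, a replicate block, splines of 5 degrees of freedom on transcript length and GC content, and fewer libraries.

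Replicates differed beyond sampling noise (chi-square over its degrees of freedom was 14.9 or more). WT 3 and hetL1002P 3 stood apart on principal component 1, at -47.5 and -32.5, where the other 7 lay between -9.52 and 28.8. Replicate numbers are from the titles. Pairs of WT and hetL1002P with 1 number correlated above 0.1 in all 3 cases, the bound for pairing. Such pairs with hetX753 (-0.279 to 0.164) did not in all cases. With different numbers, WT and hetL1002P ran from -0.454 to 0.198, and hetL1002P 2 with WT 1 (0.198) was also above the bound. Coordinates and promoters are from RefSeq (GRCm38.p6, the assembly behind mm10), and 33 members had a promoter. Transcripts are from GENCODE M21. The longest transcript marked as principal was taken, or the longest basic transcript where none is marked, and is called principal here. A length was found for 98.43% of symbols and every member.

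The members, lists and alternatives were chosen with earlier results of these data known. Values per library are printed for the core subunits, the 4 smallest p and the extreme changes of each comparison, and the member nearest the median in hetX753 against WT. Of assembly factors and biogenesis regulators the 4 with the smallest p were named, and 1 of each other list. Further members were named by role. Values of 1 member are not reported here, and it is included in counts and medians.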

Additional observations from a re-analysis of the deposited data

How the results depend on the processing

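The number of members called was 0 in the fit of all libraries in each comparison. Of all genes, that fit called 0.508% in hetX753 against WT, 0.0% in hetL1002P against WT and 0.115% between carriers. The number of members stayed 0 under every alternative except 2. With the replicate block on WT and hetL1002P alone it was 12 in hetL1002P against WT, where 5.01% of all genes were called. With 1 library left out it ran from 0 to 1 in hetX753 against WT (Ndufv3, without hetL1002P 3, where 5.07% of all genes were called). With the replicate block on all 9 libraries it was 0 in each comparison, where 0.508%, 0.0% and 0.239% of all genes were called. The block on the 2 genotypes with 1 pair omitted, or with the length and GC trend removed, was added after the data were seen. It called 0 members and at most 1.75% of all genes.

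The median log2 fold change of the members moved most with the length and GC trend and with single libraries. With the trend removed it was -0.15 in hetX753 and -0.07 in hetL1002P against WT and -0.07 between the carriers. With 1 library left out it ran from -0.52 to -0.22 in hetX753 against WT, from -0.54 to -0.09 in hetL1002P against WT, and from -0.25 to 0.12 between the carriers. Of these, the values nearest 0 against WT came without WT 3. The shifts are within the pooled SD of the library medians (0.29), a yardstick larger than the medians in hetL1002P and between carriers, so it does not show them to be stable. Without both WT 3 and hetL1002P 3 the 3 medians were -0.22, -0.36 and 0.12. With library totals as the only scaling they were -0.27, -0.20 and -0.07.

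Some single genes changed sign, and the cause was not tested. In hetX753 against WT, Ndufa10 stood at 0.05 with library totals as the only scaling, 0.029 with the length and GC trend removed, 0.033 with the block in addition, and 0.001 without both WT 3 and hetL1002P 3. Ndufv1 stood at 0.026 with the trend removed and 0.031 with the block in addition. In hetL1002P against WT, Ndufs8 stood at 0.037 with the trend removed, 0.039 with the block in addition and 0.04 with both on the 2 genotypes alone, and Ndufs1 between -0.019 and 0.071 with 1 library left out. Between carriers, Ndufab1 stood at 0.143 without both libraries. With 1 library left out, Ndufab1 ran from -0.623 to 0.145 and Ndufb5 from -0.069 to 0.36.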
